A study of Mus musculus with 23 samples.

Results

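Id1, Id2, Id3 and Id4 encode the inhibitors of DNA binding, and their transcripts were followed on 23 microarrays of mouse epiblast-like cells given BMP4, WNT3A, both or neither. The members are the probe sets that the platform annotation assigns to 1 of these 4 genes alone, which gave 8 of the 45101 probe sets on the array and all 4 of the genes sought, among 18194 genes that have a probe set of their own. Id1 has 1 probe set (1425895_a_at), Id2 has 3 (1435176_a_at, 1422537_a_at and 1453596_at), Id3 has 1 (1416630_at) and Id4 has 3 (1423259_at, 1450928_at and 1423260_at, all designed on the same transcript record). The values are deposited array signals, which have no natural unit and are read between arrays for 1 probe set at a time.

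ID proteins are helix-loop-helix proteins without a DNA-binding region. They pair with the E proteins, the common partners of tissue-specific basic helix-loop-helix (bHLH) factors, and keep them from DNA. BMP ligands act through type I and type II receptor kinases that phosphorylate receptor SMADs, which enter the nucleus with SMAD4. The Id genes are among the best known direct targets of that step, so their transcripts are widely read as a gauge of BMP signalling. In mouse embryonic stem cells, Id genes raised by BMP are known for holding back neural differentiation.

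Embryonic stem cells of 2 male C57BL/6 lines, Wnt3-/- (KO) and Wnt3+/+ (WT), both bearing the BV transgenes, were kept with 2 kinase inhibitors and LIF. They were then turned into epiblast-like cells with activin A and bFGF, and floated as aggregates in a serum-replacement medium with LIF, which every culture group received. KO aggregates were arrayed after BMP4 (500 ng/ml), under the title WNT3A (50 ng/ml), under the title BMP4+WNT3A at those doses, and with no added cytokine. WT aggregates were arrayed after BMP4, after WNT3A and with no added cytokine, at the same doses. Each of these 7 groups has 1 array at 12, 24 and 36 h, and each line has 1 array at 0 h, before aggregation. The times stand in for replicates (n = 3 times per group), so the errors below measure how far arrays departed from a time course shared by all groups. With a single line per genotype, the effects of line and of genotype cannot be told apart, and in bulk RNA fewer cells with a transcript cannot be told apart from less of it per cell.

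For 6 KO arrays the labels disagree at all 3 times. Those titled WNT3A carry an array name that lists both cytokines, and those titled BMP4+WNT3A carry an array name that lists WNT3A alone. The groups here follow the titles, and both labels are given where a result rests on them. Sp5, a direct target of WNT signalling, read 488 to 1269 in the KO arrays titled WNT3A and 1046 to 5833 in those titled BMP4+WNT3A, against 15.9 to 31.1 in the other KO culture arrays. The Wnt3 probe set read 11.2 to 27.9 in KO arrays and 10.4 to 146 in WT arrays, and where its probes lie relative to the deletion is not stated. At 0 h, 6 of 6 epiblast-like markers were above their array's median in both lines, with summed signals of 27347 in KO and 27248 in WT. Of the primitive endoderm markers, 5 of 6 in KO and 4 of 6 in WT were above it, at summed signals of 432 and 409. Of the naive pluripotency markers, 4 of 6 in KO and 3 of 6 in WT were above it, at summed signals of 816 and 786. Of the neural ectoderm markers, 1 of 4 in KO and 2 of 4 in WT were above it. They summed to 2350 and 2268, of which Sox3 made 2257 and 2165. Of the trophoblast markers, 1 of 4 was above it in each line, Eomes at 171 in KO and 152 in WT, and Elf5 was lowest at 6.68 and 6.59. Array medians ran from 36.8 to 41.4. A high ratio of 3' to 5' Gapdh signal, a sign of less intact RNA or shorter copies, marked 3 arrays: WT with WNT3A at 24 h (4.03), KO without cytokine at 24 h (2.68) and WT without cytokine at 36 h (2.30). The other arrays read 1.09 to 1.71.

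The upstream sequences are shown because members of the family moved together under BMP4. RefSeq windows were at hand for 3 of the 4 genes, Id2, Id3 and Id4, and the 250 bases before each annotated start are printed 5′ to 3′ on the gene's strand, in build GRCm38.p6. They lie at chr12:25096093-25096342 (minus strand), chr4:136143572-136143821 (plus strand) and chr13:48260866-48261115 (plus strand). Capitals mark GGCGCC, the GC-rich core of a BMP-responsive element known from Id promoters, and GTCT or its complement AGAC, the SMAD-binding box. Both strands were searched.
Id2: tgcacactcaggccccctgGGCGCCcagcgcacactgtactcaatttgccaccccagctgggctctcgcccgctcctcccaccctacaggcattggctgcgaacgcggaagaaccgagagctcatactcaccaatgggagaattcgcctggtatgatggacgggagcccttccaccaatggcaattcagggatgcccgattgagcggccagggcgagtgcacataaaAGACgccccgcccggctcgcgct
Id3: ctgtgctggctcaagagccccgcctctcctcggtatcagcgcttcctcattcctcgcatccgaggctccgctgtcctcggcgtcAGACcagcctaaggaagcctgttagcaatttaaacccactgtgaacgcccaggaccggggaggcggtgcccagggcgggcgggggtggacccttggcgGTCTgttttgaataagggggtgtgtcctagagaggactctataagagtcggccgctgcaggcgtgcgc
Id4: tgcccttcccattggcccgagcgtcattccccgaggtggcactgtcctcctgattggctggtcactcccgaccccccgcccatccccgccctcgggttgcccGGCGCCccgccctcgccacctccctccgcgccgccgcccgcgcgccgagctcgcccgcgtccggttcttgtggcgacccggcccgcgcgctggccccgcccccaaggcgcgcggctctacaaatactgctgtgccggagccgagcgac

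The Id2 and Id4 windows each hold 1 GGCGCC, which 9.59% of all 32851 windows hold, and the Id3 window holds 0. The Id3 window holds 2 SMAD-binding boxes, the Id2 window 1 and the Id4 window 0, and 82.9% of all windows hold at least 1. GCCGNCGC, a longer GC-rich SMAD site, occurs 1 time in the Id4 window and 0 times in the others, against at least 1 in 6.89% of all windows. CCAAT, the box bound by the NF-Y factor, occurs 3 times in the Id2 window, 2 times in the Id4 window and 0 times in the Id3 window, against at least 1 in 33.8% of all windows. None of these matches overlap. The windows share no single motif of this search, and a match is only a string of letters in a short window.

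BMP4 raised Id1, Id2 and Id3 in both lines, and both brighter Id4 probe sets read higher with BMP4 at every time. On the log2 scale described next, the largest differences were those of Id1, at about the same size in KO and WT. The smallest on that scale were those of Id3, which already had the signal of a well expressed gene before BMP4. The test throughout is limma on quantile-normalized log2(signal + 16) with time as a block, with Benjamini-Hochberg adjustment over 21769 probe sets and a threshold of 0.05 on the adjusted p. Differences and their standard errors are on that log2 scale, which understates folds of dim probe sets. A probe set was tested if it exceeded its array's median on at least 3 arrays. This admitted 6 of the 8 Id probe sets. Those of Id1 and Id3 and both of Id2 were above the median on 7 or 8 of the 8 arrays without cytokine. Both of Id4 were above it on 0 of those 8, so they entered only through cytokine groups in which they are high. They are kept out of the counts of calls for a rise or fall, and a count given over all 6 includes them. The 2 left out, 1453596_at of Id2 (1.82 to 13.5) and 1423260_at of Id4 (3.68 to 29.7), were below the median on every array.

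**Figure D1:**
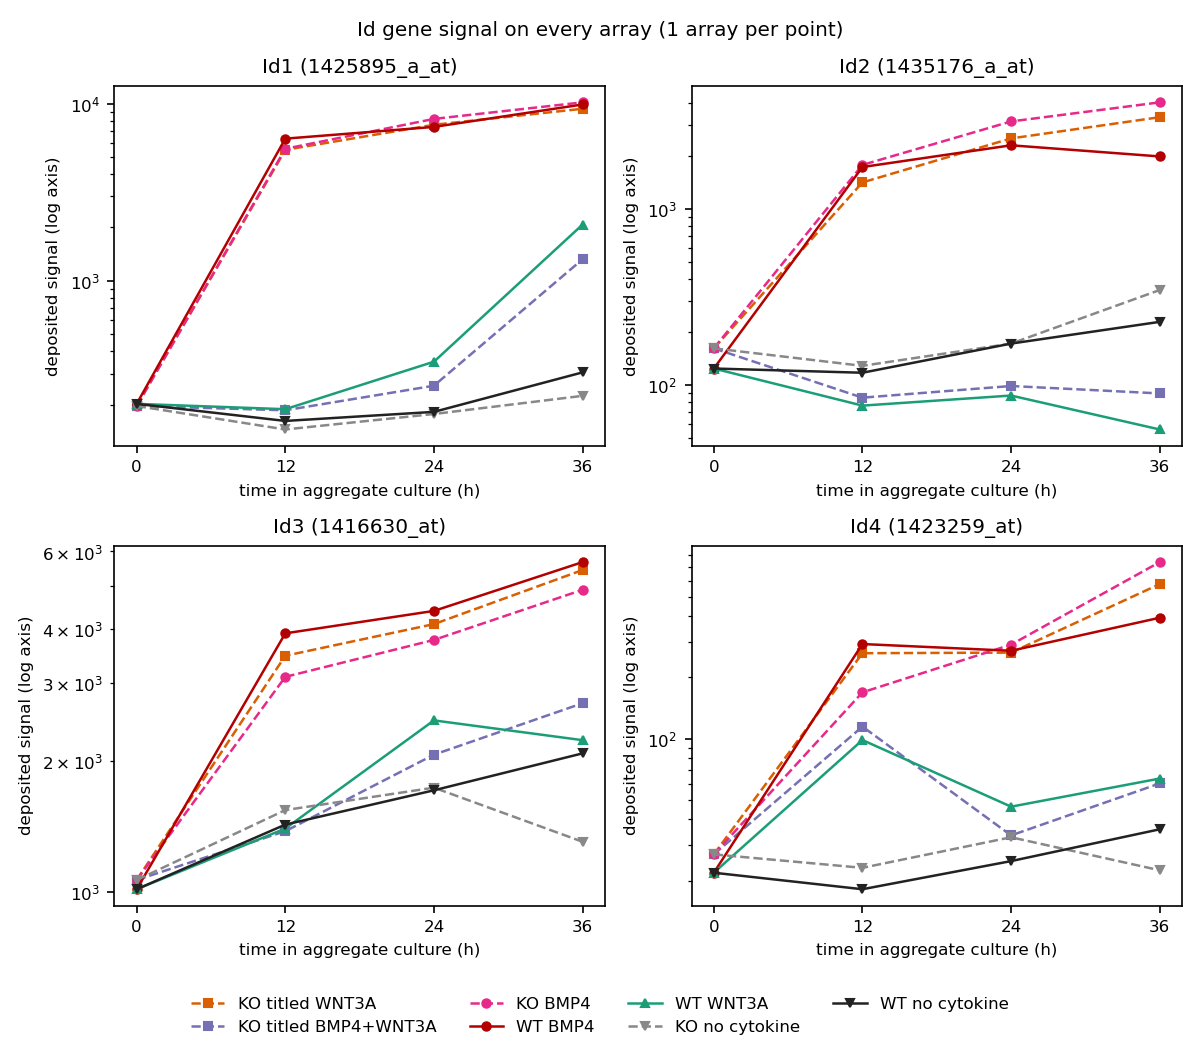
Deposited signal (log axis) of the brightest probe set of each Id gene against time in aggregate culture in hours, with 1 array per point and 7 groups of lines that start from the 0 h array of their own line. The high lines in every panel from 12 h on are BMP4 in KO, BMP4 in WT and the KO arrays titled WNT3A, and Id1 at 36 h also stands at 1323 in KO titled BMP4+WNT3A and 2077 in WT with WNT3A.

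Id1, the family member most often used as a BMP reporter, read 5557, 8192 and 10156 at 12, 24 and 36 h in KO aggregates with BMP4, against 145, 177 and 224 in KO aggregates without cytokine. In WT aggregates it read 6339, 7383 and 9878 with BMP4, against 162, 182 and 304 without cytokine. At single times the signal with BMP4 was 38.3 to 46.2 times as high in KO and 32.4 to 40.5 times as high in WT. At 0 h, Id1 read 197 in KO and 202 in WT. Id1 rose by 5.31 ± 0.43 in KO (adjusted p = 8.23e-06) and by 5.14 ± 0.43 in WT (adjusted p = 1.19e-05).

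Id2, whose product restrains E proteins in many lineages, was read by a bright and a less bright probe set. The brighter one, 1435176_a_at, read 1771, 3126 and 4012 at the 3 times in KO with BMP4, against 128, 171 and 345 in KO without cytokine. In WT it read 1722, 2288 and 1978 with BMP4, against 117, 171 and 228 without cytokine. The KO signal with BMP4 was higher at each later time, whereas the WT signal was highest at 24 h. The second probe set, 1422537_a_at, read 898, 1663 and 2435 in KO with BMP4, against 57.7, 35.5 and 146 without cytokine. In WT it read 855, 1252 and 1136 with BMP4, against 53.4, 85.6 and 75.6 without cytokine. Both probe sets rose in both lines, by 3.74 ± 0.26 and 4.19 ± 0.33 in KO (adjusted p = 2.78e-06 and 7.40e-06) and by 3.47 ± 0.26 and 3.67 ± 0.33 in WT (adjusted p = 8.73e-06 and 1.49e-05).

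Id3, often raised together with Id1, read 3104, 3769 and 4905 in KO with BMP4, against 1541, 1734 and 1305 in KO without cytokine. In WT it read 3902, 4390.0 and 5673 with BMP4, against 1428, 1710.3 and 2077 without cytokine. The signal at single times was only 2.01 to 3.76 times as high in KO and 2.57 to 2.73 times as high in WT. Id3 also read 1067 in KO and 1017 in WT at 0 h, below every later array. It rose by 1.36 ± 0.17 in KO (adjusted p = 0.0013) and by 1.43 ± 0.17 in WT (adjusted p = 2.63e-04).

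Id4, known chiefly from neural progenitors and spermatogonial stem cells, was dim without BMP4. Its probe set 1423259_at read 169, 290.0 and 739 in KO with BMP4, against 23.1, 32.7 and 22.5 in KO without cytokine. In WT it read 292, 271 and 393 with BMP4, against 18.1, 24.9 and 35.8 without cytokine. All arrays without cytokine lay below their array's median, and all BMP4 arrays above it. The dimmer 1450928_at read 31.1, 66.7 and 159 in KO with BMP4, against 9.45, 9.58 and 6.11 without cytokine. In WT it read 35.3, 37.5 and 86.2 with BMP4, against 4.08, 8.22 and 11.1 without cytokine. Both probe sets entered the tests only through cytokine groups in which they are high. Their adjusted p are therefore not read as support for a rise. The difference of 1423259_at was 3.03 ± 0.37 in KO (adjusted p = 0.00109) and 3.02 ± 0.37 in WT (adjusted p = 2.96e-04). That of 1450928_at was 1.80 ± 0.31 in KO (adjusted p = 0.0148) and 1.47 ± 0.31 in WT (adjusted p = 0.0162), and its call was lost in both lines without the 3 arrays of high Gapdh ratio (adjusted p = 0.0712 in KO and 0.0832 in WT).

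Of the 4 probe sets of Id1, Id2 and Id3, 4 rose under BMP4 in KO, where 0.45% of all probe sets were called in either direction and 0.193% rose. In WT 4 rose as well, where 3.05% were called and 1.25% rose. At an unadjusted p under 0.05, limma had 2266 of all 21769 in KO and 3742 in WT, which also stand beside the gene lists read below. Without the 24 h arrays, which leaves 2 times, 3 of these 4 kept an adjusted p under 0.05 in each line, namely Id1 and both Id2 probe sets, among 5 called over the whole array in KO and 17 in WT. In that setting Id3 and both Id4 probe sets had adjusted p of 0.197, 0.197 and 0.634 in KO and of 0.0563, 0.0707 and 0.221 in WT, with differences of about the same size.

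**Figure D2:**
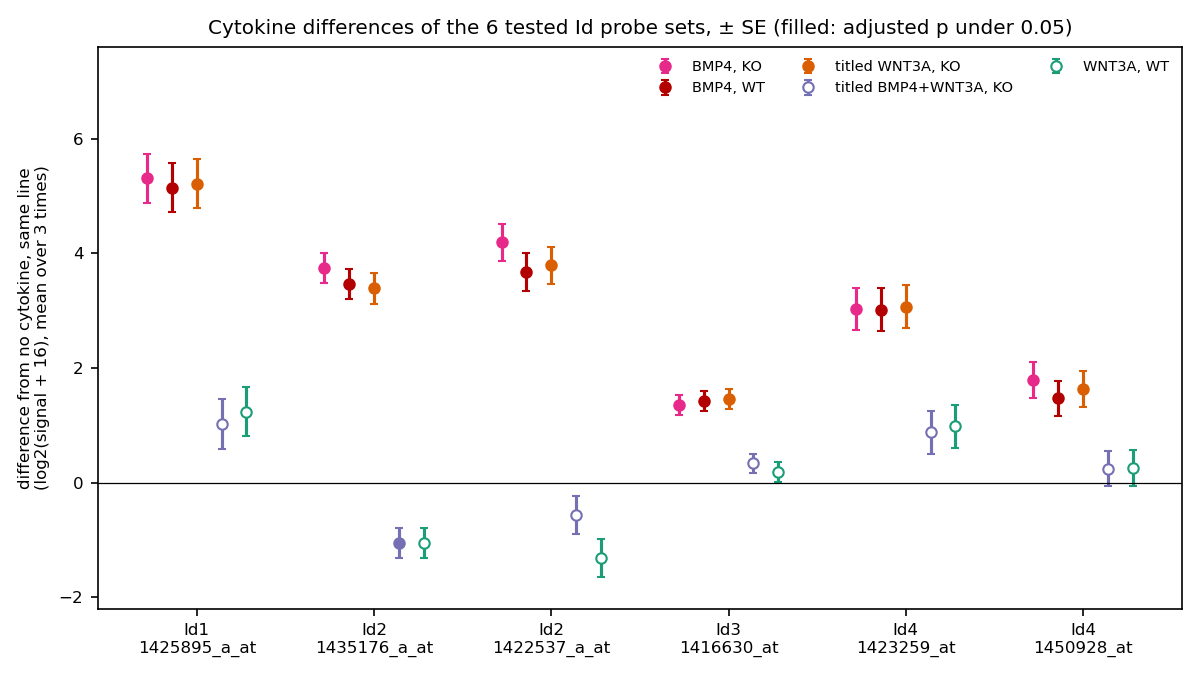
Difference from the same line without cytokine on the log2(signal + 16) scale, averaged over 3 times, for the 6 tested Id probe sets; bars are ± 1 standard error and filled points have an adjusted p under 0.05. BMP4 in KO, BMP4 in WT and the arrays titled WNT3A in KO lie together above 1 for every probe set, while titled BMP4+WNT3A in KO and WNT3A in WT lie near or below 1.5, with Id2 below 0.

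The response was then set between the lines. Under BMP4 itself, KO minus WT was -0.04 for Id1 (95% interval -0.95 to 0.88), 0.51 for 1435176_a_at of Id2 (-0.05 to 1.06), -0.26 for Id3 (-0.62 to 0.11) and 0.02 for 1423259_at of Id4 (-0.77 to 0.81). Of the 6 tested Id probe sets 0 passed, where 5.93% of all probe sets did. Without cytokine, 0 of 6 passed as well, where 0.0597% of all did, with differences between -0.20 for Id1 and 0.23 for Id2. At an unadjusted p under 0.05, limma had 0 of 6 in both of these comparisons. Of all 21769 probe sets it had 4366 with BMP4 and 2442 without cytokine. The intervals leave room for differences of up to about 1 on the log2 scale.

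The difference of the BMP4 responses, KO minus WT, was 0.16 for Id1 (-1.13 to 1.45), 0.27 and 0.52 for the Id2 probe sets (-0.51 to 1.06 and -0.46 to 1.5), -0.07 for Id3 (-0.59 to 0.44), and 0.01 and 0.33 for those of Id4 (-1.10 to 1.13 and -0.60 to 1.26). For this comparison limma called 0 of 6 Id probe sets and 0 of all 21769 (0%), with 0 of the 6 and 1248 of all at an unadjusted p under 0.05 and a smallest adjusted p of 0.0892. Msx1, a homeobox target of BMP signalling, had the much larger difference of -2.30 ± 0.47 and still an adjusted p of 0.189. The markers of epiblast-like cells were read beside the Id genes. Their summed signal was 27756 to 29859 in KO with BMP4 and 29019 to 31994 in KO without cytokine, and 0 of 6 passed, with 1 at an unadjusted p under 0.05. In WT it was 12876 to 21913 with BMP4 and 22714 to 29677 without cytokine, where Fgf5 fell by 2.69 and Pou3f1 fell by 2.86. Their difference of response, KO minus WT, was called for 0 of 6, with 3 at an unadjusted p under 0.05, and their part in the Id values was not tested.

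**Figure D3:**
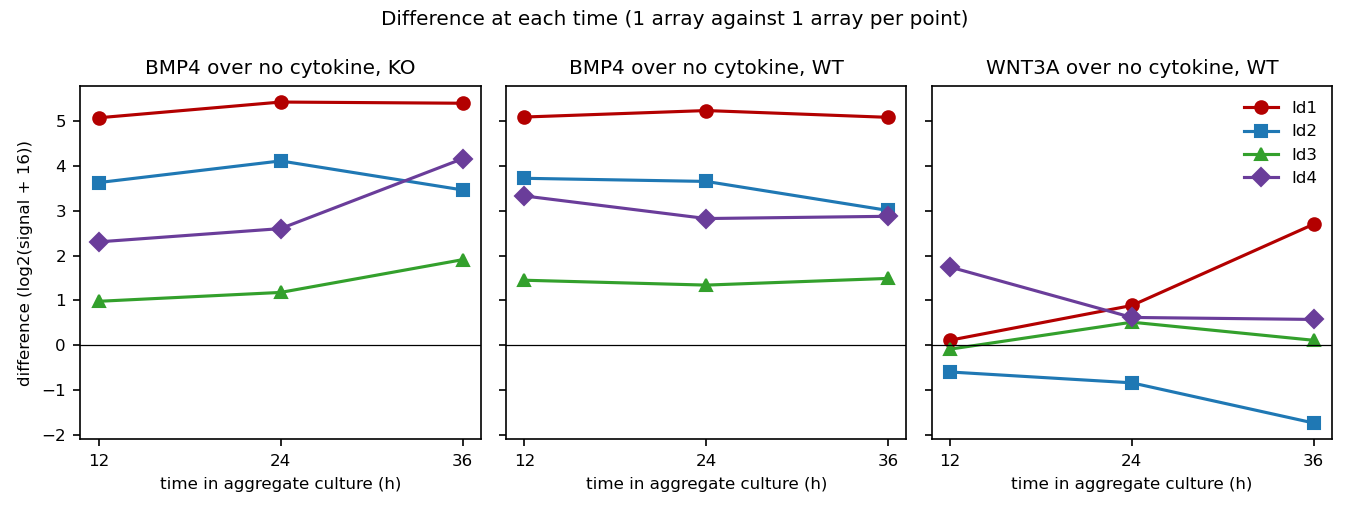
Difference from the same line without cytokine at 12, 24 and 36 h on the log2(signal + 16) scale, 1 array against 1 array per point, for the brightest probe set of each Id gene. The Id1 difference stays between 5.08 and 5.43 in KO with BMP4 and between 5.09 and 5.24 in WT with BMP4, the Id4 difference in KO reaches 4.17 at 36 h, and under WNT3A in WT the Id1 difference is 0.11, 0.89 and 2.71.

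The course after 12 h was read with a second limma model, which has a linear slope for each group (per 12 h) and a shared curvature, on 6 residual degrees of freedom. With BMP4 in KO, the 6 slopes lay between 0.28 and 0.91, and 5 of them had an unadjusted p under 0.05, as did 3374 of all 21769. The adjusted p passed for 1450928_at of Id4 at 0.89 ± 0.16 (0.0332) and for 0 of the 4 of Id1, Id2 and Id3, where 0.822% of all slopes passed and 0.413% were upward. The brighter Id4 probe set had 0.91 ± 0.19 (adjusted p = 0.0594) and Id2 1435176_a_at had 0.51 ± 0.13 (adjusted p = 0.107). The count over all 6 in KO with BMP4 was between 0 and 5 over the alternative settings. With BMP4 in WT, 0 of 6 slopes passed, where 11.4% of all did. At an unadjusted p under 0.05 were 1 of the 6 and 5972 of all. Id4 1423259_at had 0.06 ± 0.19 and Id2 1435176_a_at had -0.01 ± 0.13. The slope under BMP4, KO minus WT, was 0.85 ± 0.27 for Id4 1423259_at (adjusted p = 0.211) and 0.52 ± 0.19 for Id2 1435176_a_at (adjusted p = 0.268). Of the 6, 0 passed and 2 had an unadjusted p under 0.05, where 0.303% of all passed and 2594 of all had such a p.

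Without cytokine, Id3 in WT was 1.40, 1.68 and 2.04 times its 0 h signal at the 3 times, and in KO 1.44, 1.62 and 1.22 times. The lines parted only at 36 h, where the WT array is one of those with a high Gapdh ratio (2.30). In KO, Id2 1435176_a_at had a called slope of 0.60 ± 0.13 per 12 h (adjusted p = 0.0461), the one call among 6, where 1.88% of all probe sets were called and 0.831% were upward. This call was kept in 7 of 11 alternatives, and its adjusted p ranged from 0.00718 to 0.112. In WT the same probe set had 0.35 ± 0.13 (adjusted p = 0.208) and 0 of 6 passed, where 3.06% of all did. At an unadjusted p under 0.05 were 1 of the 6 and 3514 of all 21769. KO minus WT gave 0.24 ± 0.19 for the slope of this Id2 probe set (adjusted p = 0.73), and 0 of 6 passed, where 0.101% of all did. Again 1 of the 6 had an unadjusted p under 0.05, as did 1926 of all.

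WNT3A in WT gave no called difference in level for any Id probe set. The WT arrays without cytokine were themselves not low in the WNT target Sp5 at 36 h. Sp5 read 27.5, 181 and 3541 there at the 3 times, against 1097.5, 3641 and 5914 with WNT3A. In WT with BMP4 it read 1024 to 2385. Id1 read 189, 350 and 2077 at the 3 times, against 162, 182 and 304 without cytokine. Only the 12 h array with WNT3A lay within the range of the arrays without cytokine. The 24 h array was 1.92 times its partner, and the 36 h array stood apart at 6.82 times. Id2 1435176_a_at read 76.1, 86.8 and 55.7 with WNT3A, against 117, 171 and 228 without cytokine. Its second probe set read 26.0, 11 and 21.9 with WNT3A, against 53.4, 85.6 and 75.6. Id3 read 1399, 2469 and 2226, against 1428, 1710.3 and 2077, which overlap. Id4 1423259_at read 98.4, 46.2 and 63.6, against 18.1, 24.9 and 35.8, and with WNT3A it was highest at 12 h. Id4 1450928_at read 19.2, 4.32 and 15.3, against 4.08, 8.22 and 11.1, all below the array medians.

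Averaged over the times, the WNT3A difference in WT was 1.24 ± 0.43 for Id1 (adjusted p = 0.243), -1.06 ± 0.26 and -1.32 ± 0.33 for Id2 (0.101 and 0.104), 0.18 ± 0.17 for Id3 (0.71) and 0.98 ± 0.37 and 0.26 ± 0.31 for Id4 (0.289 and 0.777). Of the 6, limma called 0, where it called 0.386% of all probe sets. At an unadjusted p under 0.05 were 4 of the 6 (Id1, both of Id2 and Id4 1423259_at) and 2787 of all 21769. The slope of Id1 under WNT3A passed at 1.63 ± 0.18 per 12 h (adjusted p = 6.76e-04), the one Id call, where 7.89% of all slopes passed and 4.38% were upward, and in all 11 alternatives run its adjusted p was at most 0.00207. Against the slope without cytokine, Id1 was steeper by 1.30 ± 0.26 (adjusted p = 0.0781), so 0 of 6 passed, where 0.211% of all passed. Of the 6, 2 had an unadjusted p under 0.05, as did 1972 of all 21769. Id1 passed at 0.0482 with the highest probe set of each gene as its 1 row, and in 0 of the 10 other alternatives. BMP4 minus WNT3A in WT was 3.91 ± 0.43 for Id1, 4.53 ± 0.26 and 4.99 ± 0.33 for Id2, 1.25 ± 0.17 for Id3, and 2.03 ± 0.37 and 1.21 ± 0.31 for Id4. Of the 4 of Id1, Id2 and Id3, 4 rose, where 0.602% of all were called and 0.257% rose. Id4 1423259_at is not counted. Its adjusted p was 0.0171, and 0.116 without the 3 arrays of high Gapdh ratio and 0.0502 without the 36 h arrays. That of 1450928_at was 0.0888. Without the 24 h arrays 2 passed, both of Id2. The BMP4 and WNT3A comparisons share the WT arrays without cytokine.

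The KO arrays titled WNT3A showed Id signals of the BMP4 size. Id1 was at 5480.2 at 12 h, 7591 at 24 h and 9345 at 36 h, against the 145 to 224 of KO without cytokine. Id2 1435176_a_at was at 1409, 2504 and 3304, Id3 at 3468, 4096 and 5442, and Id4 1423259_at at 263, 265 and 576. In KO without cytokine, Id2 1435176_a_at read 128 to 345, Id3 1305 to 1734 and Id4 1423259_at 22.5 to 32.7. The second Id2 probe set read 755, 1278 and 1771, and 1450928_at of Id4 read 45.3, 47.5 and 94.4. Against no cytokine the 4 of Id1, Id2 and Id3 rose, where 7.75% of all probe sets were called and 3.15% rose. Id1 rose by 5.22 ± 0.43, Id2 by 3.39 ± 0.26 and 3.79 ± 0.33, and Id3 by 1.46 ± 0.17. The Id4 differences, given as values alone, were 3.07 ± 0.37 and 1.63 ± 0.31. Against KO with BMP4, limma called 0 of 6, also 0 at an unadjusted p under 0.05, where 3.19% of all were called and 3469 of all 21769 had such a p. That difference was -0.09 for Id1 (-1.0 to 0.82), -0.35 for Id2 1435176_a_at (-0.91 to 0.20), 0.11 for Id3 (-0.26 to 0.47) and 0.04 for Id4 1423259_at (-0.75 to 0.83).

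The KO arrays titled BMP4+WNT3A did not show them. Id1 read 186, 256 and 1323 there, against 145, 177 and 224 in KO without cytokine. The 36 h array stood apart, as it did in WT with WNT3A. Id2 1435176_a_at read 84.4, 98.4 and 89.3, against 128, 171 and 345. Id3 read 1379.6, 2062 and 2702, against 1541, 1734 and 1305. Those Id3 groups overlap, with the 36 h array highest. Id4 1423259_at read 115, 33.4 and 60.1, against 23.1, 32.7 and 22.5. The 12 h array was the highest, as under WNT3A in WT. The second Id2 probe set read 45.9, 48.2 and 35.5, against 57.7, 35.5 and 146, and 1450928_at of Id4 read 19.6, 7.01 and 13.1, against 9.45, 9.58 and 6.11.

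Against KO without cytokine, 0 of the 4 of Id1, Id2 and Id3 rose and 1 fell, where 5.51% of all probe sets were called and 3.1% fell. The one was Id2 1435176_a_at, which fell by 1.05 ± 0.26 on the log2 scale (adjusted p = 0.0278), and its call was lost without the 12, 24 or 36 h arrays (adjusted p = 0.052, 0.28 and 0.0521). Id1 had 1.02 ± 0.43 (adjusted p = 0.199), Id3 0.33 ± 0.17 (0.309) and Id4 1423259_at 0.88 ± 0.37 (0.203). The slope per 12 h passed for Id1 at 1.30 ± 0.18 (adjusted p = 0.00205) and for Id3 at 0.46 ± 0.11 (adjusted p = 0.0275), 2 of those 4, where 7.18% of all slopes passed and 4.1% were upward. In the arrays titled WNT3A 0 of 6 slopes passed, where 1.64% did, and 5 had an unadjusted p under 0.05, as did 3520 of all 21769. Against KO with BMP4, the 4 of Id1, Id2 and Id3 fell, where 6.44% of all were called and 3.41% fell. Both of Id4 had an adjusted p under 0.05 but are not counted, and with only the arrays compared it was 0.0744 and 0.0968. The differences were -4.28 ± 0.43 for Id1, -4.79 ± 0.26 and -4.76 ± 0.33 for Id2, -1.02 ± 0.17 for Id3, and -2.15 ± 0.37 and -1.55 ± 0.31 for Id4. Without the 24 h arrays 2 passed, both of Id2. Titled BMP4+WNT3A minus titled WNT3A gave 4 lower of those 4, where 0.207% of all were called and 0.115% fell, and 2 without the 24 h arrays. Genes listed as markers of other cell types were called in both disputed groups. The epiblast-like markers summed to 17995 to 22298 in the arrays titled WNT3A, where 3 of 6 fell, and to 14727 to 24206 in those titled BMP4+WNT3A, where 2 of 6 fell, against 29019 to 31994 without cytokine. The trophoblast markers summed to 794 to 1485 and to 1012 to 1604, against 255 to 256 without cytokine, and 1 of the 3 tested rose in each. That list holds Cdx2, Elf5, Eomes and Tfap2c, of which Eomes was highest and Elf5 lowest at 0 h in both lines. The sum alone does not name a cell type. The naive pluripotency markers summed to 964 to 1521, where 4 of 5 tested rose, and to 1136 to 1354, where 3 of 5 rose, against 385 to 510 without cytokine. The neural markers summed to 612 to 757, where 3 of 3 fell, and to 1006 to 1258, where 1 of 3 fell, against 1657 to 1918 without cytokine. At 0 h, Sox3 alone made most of the neural sum. In WT without cytokine, with BMP4 and with WNT3A, the trophoblast markers summed to 255 to 1948, 934 to 1907 and 900 to 1086. The naive markers there summed to 449 to 840, 823 to 1351 and 871 to 1197. The part of these marker lists in the Id values was not tested. The KO comparisons share the KO arrays without cytokine or with BMP4.

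Set by array name, BMP4 is listed for 9 of the 23 arrays. By that label the lowest array with BMP4 was above the highest array without it for Id1 (5480.2 against 2077), Id2 (1409 against 345, and 755 against 146), Id3 (3104 against 2702) and Id4 (169 against 115, and 31.1 against 19.6). The count is kept to the 4 probe sets of Id1, Id2 and Id3, where 25 of all 21769 tested (0.115%) were separated in this way. Both of Id4 entered the tests only through cytokine groups in which they are high, so their separation is given as values alone. The 2 dim Id probe sets were not separated. By title, 9 arrays also list BMP4, and 0 of the 4 of Id1, Id2 and Id3, and 0 of all tested (0%), were separated: Id1 then spans 186 to 10156 in arrays titled with BMP4 and 145 to 9345 in arrays titled without it. Sp5 was high in both of the disputed KO groups. Which label holds was not tested.

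With all groups in order of the fitted mean on the log2 scale, Id1 stood at 12.97 in WT with BMP4, 12.93 in KO with BMP4 and 12.84 in KO titled WNT3A. It stood at 9.06 in WT with WNT3A, 8.65 in KO titled BMP4+WNT3A, 7.82 in WT and 7.62 in KO without cytokine. The 3 high groups did not differ beyond error where tested, nor did the 2 groups without cytokine, and a difference between any 2 groups has a standard error of 0.43. Id3 ran in a like order over a narrower range, between 12.20 in WT with BMP4 and 10.58 in KO without cytokine. Id4 1423259_at had 8.46, 8.42 and 8.40 in the 3 high groups and 5.40 in KO and 5.39 in WT without cytokine. Id2 1435176_a_at alone among the 4 had its lowest means in WT with WNT3A (6.45) and KO titled BMP4+WNT3A (6.69), below KO (7.74) and WT (7.51) without cytokine.

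Across all 23 arrays the 2 tested probe sets of Id2 had a Pearson r of 0.99 and those of Id4 one of 0.96. Between genes r was 0.94 for Id1 with Id3, 0.91 for Id1 with Id4 and 0.84 for Id2 with Id3. These are descriptions over arrays that share groups and times. The genes with the nearest pattern to Id1 were Id3, Smad6 (0.92), Id4, the ERK phosphatase gene Dusp5 (0.91) and the carboxypeptidase gene Cpm (0.89). Nearest to Id3 were Smad6 (0.95), Id1, Dusp5 (0.91), the hyaluronan synthase gene Has2 (0.89) and the diacylglycerol kinase gene Dgkz (0.89). Nearest to Id4 were Cpm (0.93), Smad6 (0.92), Id1, Id3 (0.88) and Has2 (0.86). Nearest to Id2 were the focal adhesion gene Parvb (0.93), the extracellular matrix gene Coch (0.93), Hapln2 (0.91), Cpm (0.91) and Dgkz (0.90). None of these 5 is an Id gene, and Cpm and Dgkz are also near other Id genes.

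The rest of the pathway was read next. Of the 7 BMP ligand genes 3 were tested and none passed under BMP4 in KO or WT, and the Bmp4 transcript itself had -0.35 ± 0.80 in KO and 1.76 ± 0.80 in WT (adjusted p = 0.269). Bmp7, another ligand, rose against no cytokine by 1.29 ± 0.21 in KO titled BMP4+WNT3A. Of the 7 receptor genes 7 were tested and none passed in either line. Bmpr1b, a type I receptor, fell by 0.88 in KO titled WNT3A and fell by 0.72 in KO titled BMP4+WNT3A. Of the 4 SMAD genes 3 were tested and none passed, with Smad1 at 0.13 ± 0.19 in KO and 0.65 ± 0.19 in WT (adjusted p = 0.0842). At an unadjusted p under 0.05, limma had 0 ligand, 1 receptor and 0 SMAD genes in KO, and 1, 3 and 1 in WT. Of all 21769 probe sets it had 2266 in KO and 3742 in WT. The median differences of these lists lay between -0.07 and 0.25, beside -0.01 over all probe sets.

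Of the 13 inhibitor genes 10 were tested and 1 passed under BMP4 in each line, against the same shares of 0.45% in KO and 3.05% in WT. It was Smad6, which blocks receptor SMADs and is itself a target of the pathway, up 1.61 ± 0.18 in KO (adjusted p = 4.59e-04) and 1.90 ± 0.18 in WT (adjusted p = 2.64e-05). Smad6 rose by 1.93 ± 0.18 in KO titled WNT3A as well, and had 0.51 ± 0.18 in KO titled BMP4+WNT3A (adjusted p = 0.125). Bambi, a decoy receptor, had 1.10 ± 0.28 in KO (adjusted p = 0.123) and 1.07 ± 0.28 in WT (adjusted p = 0.0529). Smad7, a second inhibitory SMAD, had 1.48 ± 0.45 in KO (adjusted p = 0.196) and 0.63 ± 0.45 in WT.

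Other known BMP targets, transcription factors of the homeobox and GATA families among them, were read too. Of 8 genes 6 were tested, and 1 rose in KO and 4 in WT, with median differences of 0.84 and 1.97, where 0.193% of all probe sets rose in KO and 1.25% in WT. Msx1 rose by 1.58 ± 0.33 in KO (adjusted p = 0.0471) and by 3.88 ± 0.33 in WT (adjusted p = 1.19e-05). Msx2, its close relative, had 1.74 ± 0.55 in KO (adjusted p = 0.227) and rose by 4.21 ± 0.55 in WT (adjusted p = 4.32e-04). The GATA factor genes Gata3 and Gata2 had 1.03 ± 0.58 and 0.61 ± 0.33 in KO, without passing, and rose by 2.52 ± 0.58 and 1.42 ± 0.33 in WT. None of the 6 differences of response, KO minus WT, passed the threshold, and 2 had an unadjusted p under 0.05, as did 1248 of all 21769.

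**Figure D4:**
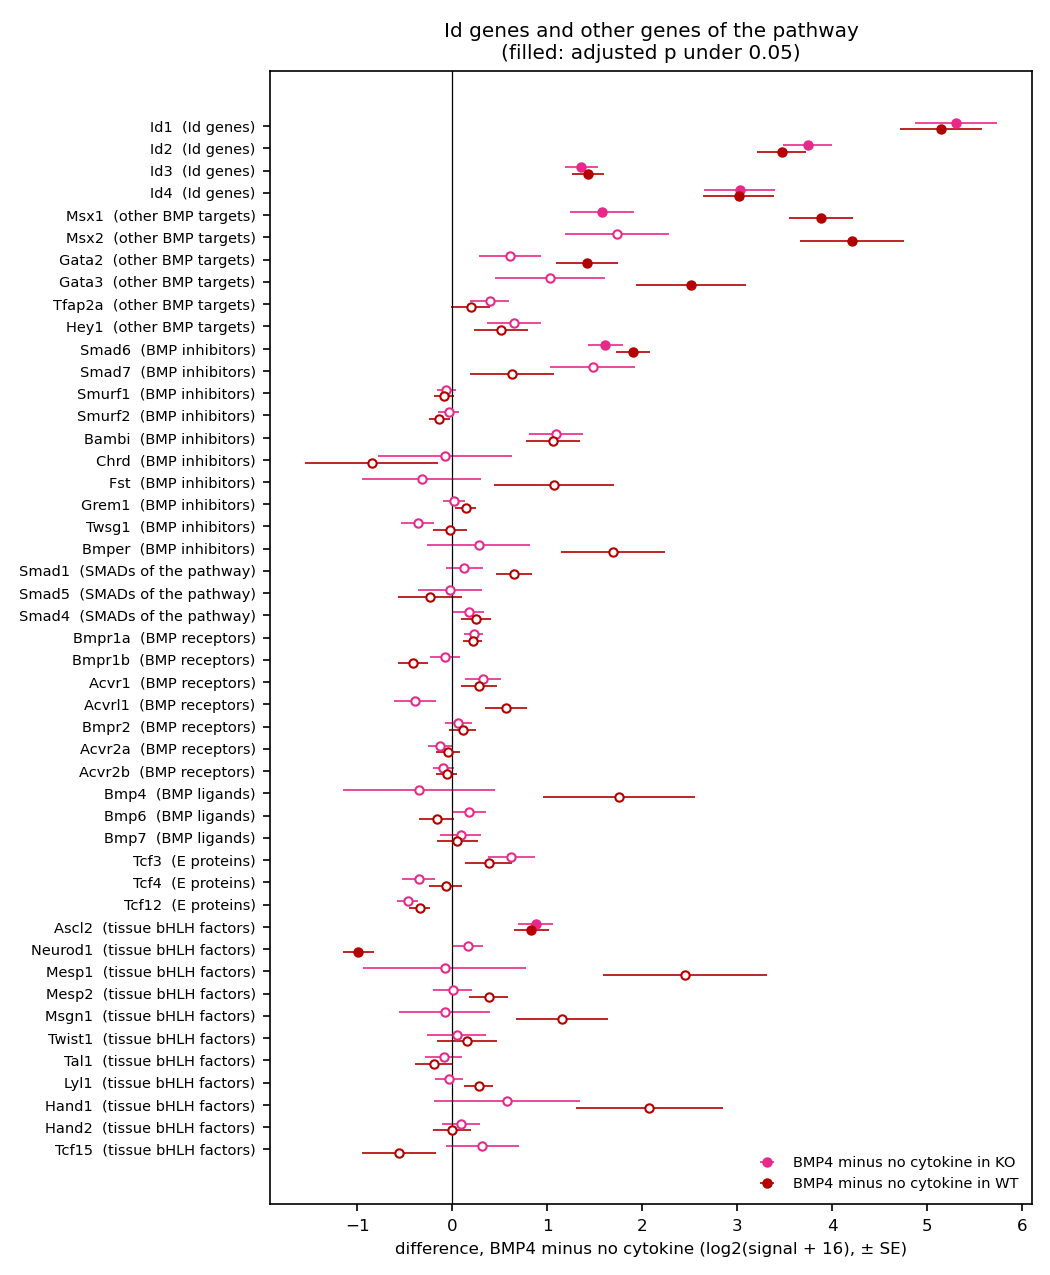
BMP4 minus no cytokine on the log2(signal + 16) scale, ± 1 standard error, for the brightest probe set of each Id gene and for every tested gene of the pathway lists, with KO above WT in each row; filled points have an adjusted p under 0.05. The 4 Id genes and Smad6 are filled at like values in both lines, and Msx1 stands at 1.58 in KO and 3.88 in WT.

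The partners and competitors of the ID proteins were read as well. Of the 3 E protein genes, 3 were tested and none passed under BMP4 in either line, with 2 in KO and 1 in WT at an unadjusted p under 0.05. Tcf12 had -0.47 ± 0.11 in KO (adjusted p = 0.086) and -0.34 ± 0.11 in WT, and Tcf3 had 0.62 ± 0.25 in KO and 0.39 ± 0.25 in WT. Of 15 tissue bHLH genes 11 were tested. In KO 1 rose and none fell, where 0.45% of all probe sets were called, and in WT 1 rose and 1 fell, where 3.05% were called. Ascl2, known from trophoblast and intestinal stem cells, rose by 0.88 ± 0.19 in KO (adjusted p = 0.0471) and by 0.83 ± 0.19 in WT (adjusted p = 0.0216). Neurod1, a neuronal bHLH factor, had 0.16 ± 0.16 in KO and fell by 0.99 ± 0.16 in WT (adjusted p = 0.00265), with a difference of response of 1.15 ± 0.23 (adjusted p = 0.164). Neural ectoderm markers were read beside the Id genes, and at 0 h Sox3 alone made 2257 of their summed 2350 in KO and 2165 of 2268 in WT. Their summed signal was 675 to 1371 in KO with BMP4 and 1657 to 1918 in KO without cytokine, and 0 of the 3 tested passed, with 2 at an unadjusted p under 0.05. In WT the sum was 343 to 623 with BMP4 and 1429 to 1531 without cytokine, and Sox1 and Sox3 fell. Whether the Id genes had a part in this was not tested.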

How the data were processed

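Total RNA of 23 cultures was amplified, labelled and hybridised to Affymetrix mouse arrays, per the labels' protocols. The deposited values are probe set intensities on a linear scale, and the steps by which the authors summarised and scaled them are not given in the sources used here. Of 45101 probe sets, 34958 name 1 gene in the platform annotation, 932 several and 9211 none. Symbols were updated by gene identifier (34754 matched). Signals were offset by 16, put on the log2 scale, quantile-normalized and fitted with limma 3.58.1 in R 4.3.3 on the 21 culture arrays, with 7 conditions and time as a block (12 residual degrees of freedom, Benjamini-Hochberg adjustment). The 0 h arrays entered no test. The code was tested on simulated data. Named list genes are up to 4 per list passing under BMP4 in KO or WT, otherwise up to 2 by size, and the 5 nearest genes per Id gene. A few other list genes that the text singles out (Bambi, Bmp7, Bmpr1b, Smad7 and the markers) were chosen after their values were seen. Members and lists were chosen with earlier results of these data known. The number of arrays limits precision.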

Additional observations from a re-analysis of the deposited data

Results flagged for a closer look

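The dim Id4 probe set 1423260_at, left out of the tests, moved in opposite directions under BMP4 in the lines at all 3 times. It read 8.57, 13.3 and 9.65 in KO with BMP4, against 21.6, 21.3 and 14.7 in KO without cytokine. In WT it read 12.2, 29.7 and 22.6 with BMP4, against 4.06, 11.9 and 4.14 without cytokine. The mean difference of response on the log2(signal + 16) scale, KO minus WT, was -1.14. That difference was not tested, and every one of these signals was below its array's median.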

How the results depend on the processing

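The design has 1 array per group and time, so every call rests on agreement across times, and dim probe sets carry the least. With the cytokine labels of the 6 disputed KO arrays exchanged, Id probe sets called, of the 6 tested with Id4 included, were 1 for titled WNT3A minus no cytokine, 6 for titled BMP4+WNT3A minus no cytokine, 6 for titled WNT3A minus BMP4 and 0 for titled BMP4+WNT3A minus BMP4, and slopes 2 for titled WNT3A and 0 for titled BMP4+WNT3A. The direction then turned for Id2 in titled WNT3A minus no cytokine (-0.57 and -1.05) and titled BMP4+WNT3A minus no cytokine (3.79 and 3.39), for Id3 and Id4 1423259_at in titled WNT3A minus BMP4 (-1.02 and -2.15) and titled BMP4+WNT3A minus BMP4 (0.11 and 0.040), and between the titled groups (Id1 4.19, Id2 4.35 and 4.44, Id3 1.13, Id4 2.19). This follows from the exchange itself. No direction turned among called results under any other setting.

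The counts here and the slope counts below include the Id4 probe sets. No share of all probe sets stands beside them, so they show only how calls depend on the setting. Leaving out 1 time moved counts to between 3 and 6 of 6 for BMP4 in WT and likewise in KO. They moved to between 2 and 5 for BMP4 minus WNT3A in WT and between 2 and 6 for titled BMP4+WNT3A minus BMP4. For titled BMP4+WNT3A minus titled WNT3A they were between 2 and 4, and for titled BMP4+WNT3A minus no cytokine 0. The lowest counts came without 24 h, and for the last comparison at every time. That last count was also 0 with an offset of 64, with the mean of probe sets per gene and with only the arrays compared. Slopes cannot be fitted with a time left out.

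Slope counts depended most on the setting. For KO with BMP4 they were 3 as deposited, 2 with median centring or an offset of 64, 0 with an offset of 1, no filter or without the 6 disputed arrays, and 5 without the 3 arrays of high Gapdh ratio. For KO titled WNT3A they were 1 as deposited, with median centring, an offset of 64, the highest probe set per gene or array weights, and 3 without the 3 arrays. For KO without cytokine they were 0 with an offset of 64, no filter, the mean of probe sets, no trend in the prior variance or without the 6 arrays, and 2 without the 3. For titled BMP4+WNT3A they were 1 with no filter or no trend. For WT with BMP4 they were 1 with an offset of 64 and 2 without the 3 arrays, for WT with WNT3A 2 without the 3, and for WNT3A minus no cytokine in WT 1 with the highest probe set per gene. The cause was not tested. Every level fit has time as a block, which pairs the arrays of 1 time, and the labels give no replicate numbers beyond that.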
